A study of Mus musculus with 6 samples.

Results

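The genes described here are the VEGF ligands Vegfa, Vegfb, Vegfc and Pgf, the receptor tyrosine kinases Kdr, Flt1 and Flt4, and the co-receptors Nrp1 and Nrp2. These 9 genes were chosen by symbol, and each had a row among the 46959 rows of the deposited table. RNA sequencing covered 3 cell populations sorted from islets of adult mice, with 2 libraries each and 6 in all. Every mouse carried the transgenes Ins1-H2b-mCherry, a nuclear reporter driven by the Ins1 promoter that marks cells making insulin, and Ucn3-eGFP, a reporter driven by the Ucn3 promoter that marks mature beta cells. Immature beta cells were positive for mCherry alone, mature beta cells were positive for both reporters, and double negative cells, the non-beta cells of the same islets, carried neither signal. Islets of several mice were pooled for each library and cultured overnight before sorting. Replicate 1 is labelled male and replicate 2 female in every group, whereas the design text speaks of pools of females only.

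VEGF-A is the secreted growth factor that drives the formation and upkeep of blood vessels, and beta cells are a main source of it in the islet, whose capillaries are dense and fenestrated. It signals mainly through the tyrosine kinase receptor encoded by Kdr on endothelial cells, while the receptor encoded by Flt1 binds VEGF-A tightly, also binds the products of Vegfb and Pgf, and is made in part as a soluble form that traps ligand. The product of Vegfc acts through the receptor encoded by Flt4, best known from lymphatic vessels, and the neuropilins encoded by Nrp1 and Nrp2 bind VEGF forms beside these kinases and also serve as receptors for class 3 semaphorins. Values are RPKM, which are reads scaled by the length of the gene and by the read total of the library, so that levels can be compared between genes per length.

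The promoters of 3 members are shown because the 2 receptor genes and Vegfa had the highest levels of their kinds and different patterns between the populations. Each run covers 240 bases, from 250 to 11 bases before the start of the gene's first listed RefSeq transcript (GRCm38.p6, minus strand, 5′ to 3′), and lies at chr5:75978466-75978705 for Kdr, chr5:147726022-147726261 for Flt1 and chr17:46032388-46032627 for Vegfa. Capitals mark matches on either strand to GGAAGT, a core bound by ETS factors, GGGCGG, the core bound by Sp factors, ACGTG or GCGTG, the core of hypoxia response elements, and TATAAA, the TATA box.
Kdr: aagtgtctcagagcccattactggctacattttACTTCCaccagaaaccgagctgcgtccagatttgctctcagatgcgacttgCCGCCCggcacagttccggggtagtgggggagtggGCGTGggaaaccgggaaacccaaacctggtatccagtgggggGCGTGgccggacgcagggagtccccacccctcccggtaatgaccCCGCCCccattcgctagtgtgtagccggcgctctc
Flt1: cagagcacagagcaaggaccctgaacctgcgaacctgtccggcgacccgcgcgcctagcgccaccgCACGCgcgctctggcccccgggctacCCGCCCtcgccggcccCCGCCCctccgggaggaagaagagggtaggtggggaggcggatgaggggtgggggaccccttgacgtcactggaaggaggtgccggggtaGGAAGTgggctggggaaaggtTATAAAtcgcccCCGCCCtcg
Vegfa: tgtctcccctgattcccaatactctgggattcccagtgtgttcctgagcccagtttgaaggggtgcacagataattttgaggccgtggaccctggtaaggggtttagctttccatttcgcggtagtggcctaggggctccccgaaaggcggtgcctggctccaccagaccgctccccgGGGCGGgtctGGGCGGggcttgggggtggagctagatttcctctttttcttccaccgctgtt
GGAAGT was found in the windows of Kdr and Flt1 only, 2 of the 9 members, against 18.7% of all 32851 promoter windows of this length. GGGCGG was found in 9 of 9 members, against 31.3% of all windows, and ACGTG or GCGTG in 6 of 9, against 37.4%. The member counts use only the first window of each gene, and Vegfa and Pgf each have 2 windows. The second window of Vegfa, which was not counted, held 1 match to GGGCGG and 2 to ACGTG or GCGTG. That of Pgf held no match to any of the motifs. TATAAA was found in Flt1 alone, against 12.1% of all windows. None of these motifs overlapped another in the 3 runs shown. The matches are descriptions of letters and say nothing of what binds there.

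The sort labels were checked against markers of the cell types an islet can hold. Summed over 9 beta cell markers, the libraries held 72885 and 78016 RPKM in immature, 246473 and 263266 RPKM in mature and 4711 and 7019 RPKM in double negative cells, with the order that the reporters select. The immature libraries held transcripts of other cell types as well, as did the double negative ones. The 13 endothelial markers summed to 911 and 876 RPKM in immature, 5.99 and 4.79 RPKM in mature and 216 and 226 RPKM in double negative cells. The sums over 10 macrophage markers were 1057 and 1105 RPKM in immature, 59.1 and 59.8 RPKM in mature and 33.2 and 32.3 RPKM in double negative cells, and of the mature sums Cd68 held 42.2 and 42.3 RPKM and C1qa 15.9 and 16.5 RPKM, both picked after their values were seen. In mature against double negative cells 1 macrophage marker was higher, 5 were lower and 4 did not pass. The sums over 12 mesenchymal and pericyte markers were 150 and 108, 0.530 and 0.541, and 24.0 and 29.6 RPKM in the same order. Over 6 acinar markers the sums were 7908 and 25387 RPKM in immature, 162 and 112 RPKM in mature and 229 and 1883 RPKM in double negative cells. The 6 alpha cell markers summed to 28170 and 19147 RPKM in immature, 561 and 754 RPKM in mature and 173128 and 167072 RPKM in double negative cells, and the 3 delta cell markers to 3382 and 3698, 220 and 338, and 20363 and 21905 RPKM in that order. The immature libraries were also the shallowest, with 2393840 and 3448924 reads recovered from the RPKM steps, against 23718072 and 26824366 in mature and 22063865 and 22731646 in double negative cells.

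Vegfa was the most abundant of the 9 genes in every library. Vegfa (ENSMUSG00000023951.17, chromosome 17, 46016993 to 46032369, minus strand, GRCm38), the main ligand of blood vessels, stood at 126 and 120 RPKM in immature, 95.2 and 89.6 RPKM in mature and 66.8 and 64.6 RPKM in double negative cells. No library of a group overlapped another group, and the order was immature, mature, double negative. These values rest on between 1295 and 10323 reads a library. In immature cells Vegfa ranked above 98.3% of the 13367 tested genes by mean RPKM, in mature cells above 97.4% and in double negative cells above 96.7%. It made up 87.0% and 83.4% of the summed RPKM of the 4 ligand genes in immature, 84.6% and 84.2% in mature and 76.0% and 76.7% in double negative cells.

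**Figure D1:**
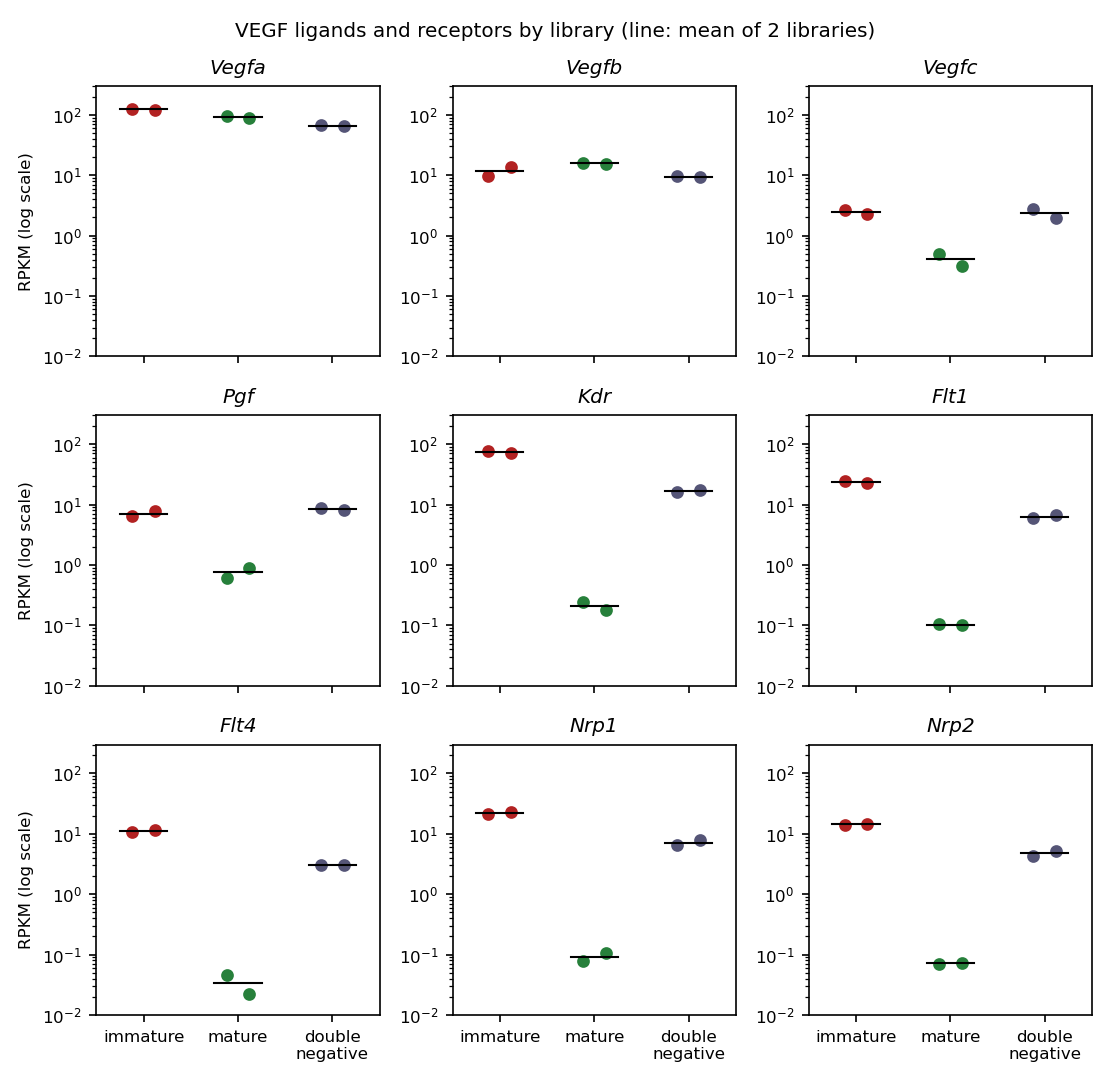
RPKM on a log axis of the 9 VEGF genes in 6 libraries, with 2 points per group for the libraries and a line at their mean. Vegfa and Vegfb stay within a narrow band across groups, while the 5 receptor genes lie below 0.25 RPKM in both mature libraries and above 3 RPKM in all others.

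In immature against mature beta cells, the 5 receptor genes and the ligands Vegfc, Pgf and Vegfa were higher, and Vegfb was lower. With an adjusted p below 0.05 taken as the threshold in limma, all 9 members passed, 8 of them higher and 1 lower, beside 65.3% of the 13367 tested genes that passed, 49.8% higher and 15.5% lower. The members' median log2 difference was 3.54, beside 0.29 for all tested genes, on the scale log2(RPKM + 1), which understates the change of low genes. In this comparison the values of the groups did not overlap for 9 of 9 members, beside 82.5% of tested genes. In bulk libraries fewer cells of a type and less RNA per cell cannot be told apart.

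Kdr showed the largest difference of the members. Kdr (ENSMUSG00000062960.10, chromosome 5, 75932827 to 75978458, minus strand), the main signalling receptor of endothelial cells, stood at 75.5 and 71.8 RPKM in immature, 0.243 and 0.178 RPKM in mature and 16.4 and 17.2 RPKM in double negative cells. Both immature libraries lay above all others and both mature libraries lay close to 0, with 52 and 43 reads there. Kdr rose by 5.95 in immature against mature cells (SE 0.07, limma adjusted p = 4.29e-07), and the ratio of the group means in RPKM was 350. Within replicate 1 the difference was 5.94 and within replicate 2 it was 5.95. In immature cells Kdr ranked above 96.6% of tested genes by mean RPKM, and in mature cells above 8.401%.

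The other receptor kinases had the same order of groups. Flt1 (ENSMUSG00000029648.13, chromosome 5, 147561604 to 147726011, minus strand), which binds VEGF-A, VEGF-B and placental growth factor, stood at 24.3 and 22.6 RPKM in immature, 0.106 and 0.0994 RPKM in mature and 6.02 and 6.62 RPKM in double negative cells. Flt1 rose by 4.47 in immature against mature cells (SE 0.08, limma adjusted p = 1.15e-06), with 34 and 36 reads in the mature libraries. The soluble and membrane forms of Flt1 are not separated by gene-level values. Flt4 (ENSMUSG00000020357.3, chromosome 11, 49609263 to 49652739, plus strand), the receptor for VEGF-C, stood at 10.6 and 11.6 RPKM in immature, 0.0461 and 0.0226 RPKM in mature and 3.028 and 3.003 RPKM in double negative cells. Flt4 rose by 3.54 (SE 0.09, limma adjusted p = 2.26e-06), and its mature values rest on 9 and 5 reads. The ratio of the group means in RPKM was 322 for Flt4 and 228 for Flt1. Kdr made up 68.4% and 67.7% of the summed RPKM of the 3 kinases in immature, 61.5% and 59.3% in mature and 64.5% and 64.2% in double negative cells.

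The neuropilins were likewise high in immature and close to 0 in mature cells. Nrp1 (ENSMUSG00000025810.9, chromosome 8, 128358604 to 128503363, plus strand), a co-receptor for VEGF-A and for semaphorins, stood at 21.6 and 23.1 RPKM in immature, 0.0785 and 0.107 RPKM in mature and 6.43 and 7.91 RPKM in double negative cells. It rose by 4.42 in immature against mature cells (SE 0.11, limma adjusted p = 2.16e-06). Nrp2 (ENSMUSG00000025969.15, chromosome 1, 62703285 to 62818695, plus strand), known as a co-receptor for VEGF-C and for semaphorins, stood at 14.0 and 14.7 RPKM in immature, 0.0712 and 0.0724 RPKM in mature and 4.32 and 5.19 RPKM in double negative cells. It rose by 3.84 (SE 0.10, limma adjusted p = 2.55e-06). All 5 receptor genes therefore stood in the order immature, double negative, mature, with no overlap between libraries of different groups. Beside these rises, the 13 endothelial markers all rose as well, with the endothelial cadherin gene Cdh5 at 125 and 125 RPKM in immature cells, against 0.497 and 0.262 RPKM in mature cells, and their part in the receptor differences was not tested.

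Among the ligands, the difference between immature and mature cells was small for the abundant genes and large for the scarce ones. Vegfa rose by 0.41 in immature against mature cells (SE 0.06, limma adjusted p = 0.0012), that is by 1.33 times in mean RPKM, while the median of all tested genes lay at 0.29. After median-ratio rescaling, which moves the median of all genes to -0.09, the Vegfa difference was -0.03 (limma adjusted p = 0.611), so the direction of Vegfa between these beta cell populations depends on the scaling. Vegfb (ENSMUSG00000024962.13, chromosome 19, 6982473 to 6987651, minus strand), a ligand of Flt1, stood at 9.89 and 13.9 RPKM in immature, 16.2 and 15.6 RPKM in mature and 9.66 and 9.37 RPKM in double negative cells. Both immature values lay below both mature values, and the lower of them rests on 38 reads. Vegfb fell by 0.40 in immature against mature cells (SE 0.14, limma adjusted p = 0.0498). That p lies next to the threshold and passed it in 7 of 15 alternatives run, and the difference was -0.66 within replicate 1 and -0.15 within replicate 2. Without immature replicate 1 the Vegfb difference was -0.18, and without immature replicate 2 it was -0.63.

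Vegfc and Pgf were scarce in mature beta cells. Vegfc (ENSMUSG00000031520.6, chromosome 8, 54077606 to 54187096, plus strand), the ligand of Flt4, stood at 2.67 and 2.31 RPKM in immature, 0.493 and 0.317 RPKM in mature and 2.75 and 1.96 RPKM in double negative cells. The values correspond to 12 and 15 reads in the immature libraries, the fewest behind any ligand. Vegfc rose by 1.31 in immature against mature cells (SE 0.15, limma adjusted p = 0.00059), and after quantile normalization the difference was 0.41 (limma adjusted p = 0.0557). Pgf (ENSMUSG00000004791.7, chromosome 12, 85166635 to 85177790, minus strand), which encodes placental growth factor, stood at 6.34 and 7.70 RPKM in immature, 0.613 and 0.895 RPKM in mature and 8.74 and 8.23 RPKM in double negative cells. It rose by 2.19 (SE 0.12, limma adjusted p = 4.11e-05), a ratio of 9.30 between the group means in RPKM. The Pgf values correspond to 24 and 42 reads in immature and 23 and 38 reads in mature cells, counts that are not unique. The ligand gene Figf, now called Vegfd, is not a member and was looked up after the others. It was listed at 0.694 and 0.963 RPKM in immature, 0.0525 and 0.0619 RPKM in mature and 0.0941 and 0.0548 RPKM in double negative cells, below the level needed for testing.

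**Figure D2:**
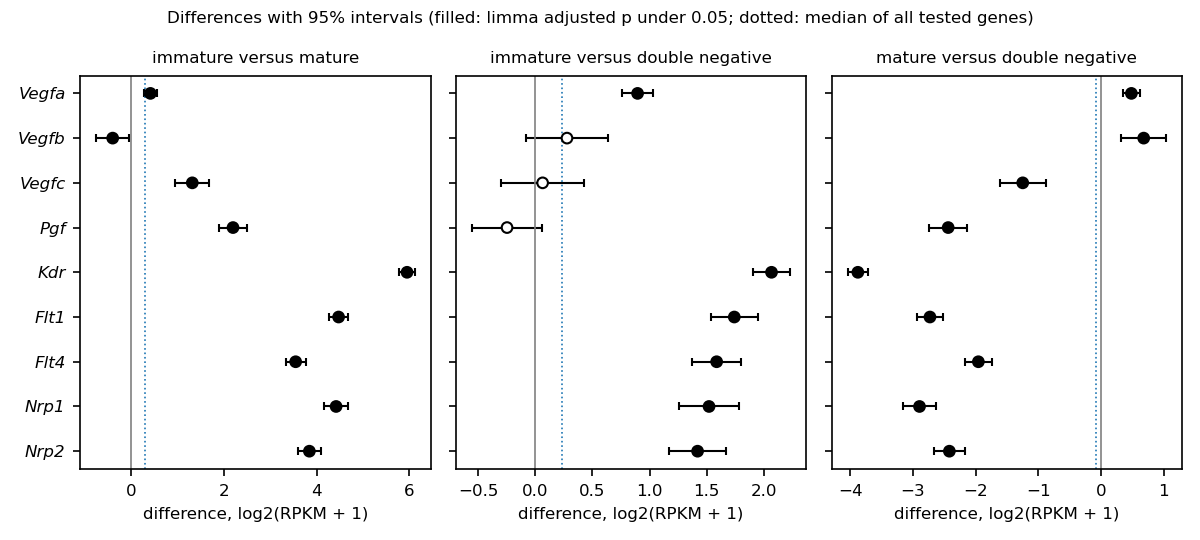
Difference on the log2(RPKM + 1) scale of each VEGF gene in the 3 comparisons, first named group minus the other, with 95% intervals from limma and filled points where the adjusted p was under 0.05. The receptors lie to the right of 3 in immature against mature cells and between 1 and 3 in immature against double negative cells, where Vegfb, Vegfc and Pgf have intervals that include 0.

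In immature beta against double negative cells, the 5 receptor genes and Vegfa were higher, and the ligands Vegfb, Vegfc and Pgf did not pass the test. That is 6 of 9 members higher and 0 lower by limma, beside 56.6% of tested genes that passed, 45.9% higher and 10.6% lower. The members' median was 1.42, beside 0.24 for all tested genes. Groups did not overlap for 8 of the 9 members, Vegfc being the exception, beside 76.2% of tested genes. Kdr rose by 2.07 (SE 0.07, limma adjusted p = 1.43e-05), a ratio of 4.38 between the group means in RPKM. The ratio of means was 3.71 for Flt1, 3.67 for Flt4, 3.12 for Nrp1 and 3.02 for Nrp2. Their log2 differences lay between 1.42 and 1.74, with limma adjusted p from 4.41e-05 to 0.000158. Vegfa rose by 0.89 (SE 0.06, limma adjusted p = 9.93e-05), a ratio of 1.87, and by 0.58 after median-ratio rescaling.

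The 3 remaining ligands are undecided in this comparison. Pgf differed by -0.25 (95% interval -0.56 to 0.06, limma adjusted p = 0.142), although both immature libraries lay below both double negative libraries. It passed as lower under median-ratio rescaling, with a difference of -0.53, and under quantile normalization, with -0.63. Without immature replicate 2 the Pgf difference was -0.37 and passed (limma adjusted p = 0.0315). Vegfb differed by 0.28 (95% interval -0.08 to 0.63, limma adjusted p = 0.153), with 0.03 within replicate 1 and 0.52 within replicate 2. Without immature replicate 1 it was 0.50 and passed (limma adjusted p = 0.00096). Vegfc differed by 0.06 (95% interval -0.30 to 0.43, limma adjusted p = 0.739), on 12 and 15 immature reads and 114 and 84 double negative reads.

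The endothelial markers moved with the receptors between these populations, and the receptors were therefore also set against them library by library. Kdr amounted to 8.29% and 8.20% of the summed RPKM of the 13 endothelial markers in immature and to 7.61% and 7.61% in double negative cells. Flt1 amounted to 2.67% and 2.58% in immature against 2.79% and 2.93% in double negative cells, and Flt4 to 1.16% and 1.32% against 1.40% and 1.33%. Nrp1 amounted to 2.37% and 2.64% in immature against 2.98% and 3.49% in double negative cells, and Nrp2 to 1.54% and 1.68% against 2.003% and 2.290%. The receptor levels thus differed 3-fold to 4-fold in RPKM between the populations, and far less per endothelial marker. In mature cells, on few reads, the shares were 4.05% and 3.71% for Kdr and 1.77% and 2.08% for Flt1.

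**Figure D3:**
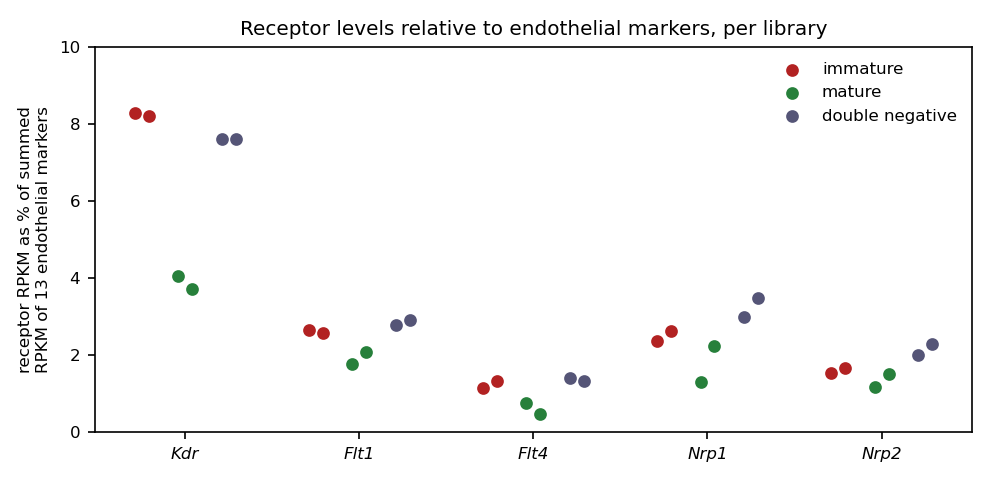
RPKM of each receptor gene as a percentage of the summed RPKM of 13 endothelial markers, with 2 points per group for the libraries. Immature and double negative libraries lie close together for each receptor, with Kdr slightly higher and both neuropilins lower in immature cells, and the mature points rest on between 5 and 52 reads.

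With the mean log2(RPKM + 1) of the endothelial markers subtracted in each library, the difference between immature and double negative cells was 0.35 for Kdr (SE 0.07, limma adjusted p = 0.00349) and -0.30 for Nrp2 (SE 0.10, limma adjusted p = 0.0219). It was 0.02 for Flt1 (95% interval -0.20 to 0.25), -0.13 for Flt4 (-0.35 to 0.09) and -0.20 for Nrp1 (-0.44 to 0.05), and these did not pass. The median of all tested genes on this scale was -1.48. The ligands lay at -0.82 for Vegfa, -1.44 for Vegfb, -1.65 for Vegfc and -1.96 for Pgf, and all 4 passed as lower. Vegfa thus lay above that median, and Vegfb and Vegfc lay near it. That made 6 of 9 members called, 1 higher and 5 lower, beside 94.2% of tested genes that passed on this scale, 3.31% higher and 90.9% lower. Against Cdh5 and Pecam1 alone, another gene of endothelial junctions, Kdr differed by 0.12 (limma adjusted p = 0.141) and Flt1 by -0.21 (limma adjusted p = 0.0448), so the small differences between receptors depend on the markers used.

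In mature beta against double negative cells, Vegfa and Vegfb were higher and the other 7 members lower. All 9 passed limma, beside 54.3% of tested genes that passed, 23.1% higher and 31.2% lower, and the groups did not overlap for any member, beside 84.9% of tested genes. The members' median was -2.42, beside -0.08 for all tested genes. Vegfa rose by 0.49 in mature cells (SE 0.06, limma adjusted p = 0.000772), a ratio of 1.41 in mean RPKM. Vegfb rose by 0.68 (SE 0.14, limma adjusted p = 0.00944), a ratio of 1.67, and its p lay between 0.0508 and 0.0595 without mature replicate 1, without double negative replicate 1 or without double negative replicate 2. Both ligands thus stood higher in mature beta cells than in the other islet cells under each scaling run.

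The receptors, Pgf and Vegfc fell in mature against double negative cells. Kdr fell by 3.88 (SE 0.07, limma adjusted p = 3.25e-06), and its mean was 80.0 times as high in double negative cells. The falls of the other receptors were 2.73 for Flt1, 1.96 for Flt4, 2.90 for Nrp1 and 2.42 for Nrp2. In mean RPKM these 4 genes were 61.5, 87.7, 77.2 and 66.2 times as high in double negative cells, in the same order. The ranking of the receptors thus depends on the scale, and the mature values rest on few reads. Pgf fell by 2.44 (SE 0.12, limma adjusted p = 3.7e-05) and Vegfc by 1.25 (SE 0.15, limma adjusted p = 0.000931). The endothelial markers fell in the same libraries, 13 of 13, with a median of -2.61, and their part in the receptor differences was not tested. The double negative libraries had the highest Pgf values, but the difference between immature and double negative cells did not pass (limma adjusted p = 0.142). The endothelial sum was highest in the immature libraries, and its part in the Pgf differences was not tested.

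The balance of ligand and receptor transcripts differed between the populations. Vegfa had 1.67 and 1.67 times the RPKM of Kdr in immature cells, 392 and 505 times in mature cells and 4.07 and 3.75 times in double negative cells. The ratio was thus highest in mature libraries, where Kdr rests on 52 and 43 reads, and the immature libraries had the lowest ratio. Relative to Vegfb, Vegfa was at 12.7 and 8.63 times in immature, 5.89 and 5.75 times in mature and 6.92 and 6.89 times in double negative cells.

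Genes that act below or beside the VEGF receptors were taken from written lists. The counts per list stand beside the shares of all tested genes, which were 49.8% higher and 15.5% lower in immature against mature cells, 45.9% and 10.6% in immature against double negative cells, and 23.1% and 31.2% in mature against double negative cells. Of 33 genes of VEGF receptor signalling, all tested, 19 rose, 6 fell and 8 did not pass in immature against mature cells, with a median of 0.39. The balance depended on the scaling: 12 were higher and 14 lower after median-ratio rescaling, with a median of -0.05, and 14 were higher and 9 lower after quantile normalization, with a median of 0.10. The rises of Nck1 and Hras turned sign under both rescalings and that of Mapk3 under median-ratio rescaling. In immature against double negative cells 21 rose, 1 fell and 11 did not pass, with a median of 0.44. The counts were 15 higher and 5 lower after median-ratio rescaling and 14 and 6 after quantile normalization, and the rise of Akt1 turned sign under median-ratio rescaling and that of Hras under quantile normalization. In mature against double negative cells 9 rose, 12 fell and 12 did not pass, with a median of -0.10. Cdc42, a small GTPase of cell shape and the most abundant of the list, stood at 108 and 99.2 RPKM in immature, 61.2 and 59.5 RPKM in mature and 79.9 and 82.7 RPKM in double negative cells. Mapkapk2, a kinase below p38, stood at 49.6 and 45.1, 60.4 and 58.1, and 25.8 and 24.2 RPKM in the same groups. Ptprb, an endothelial phosphatase that restrains Tie receptors and Kdr and was picked after its values were seen, stood at 16.3 and 14.8 RPKM in immature, 0.113 and 0.0751 RPKM in mature and 3.13 and 3.49 RPKM in double negative cells.

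Oxygen sensing, which induces Vegfa in many cells, was read from 8 regulators and 9 targets of hypoxia-inducible factors. Of the 8 regulators 4 rose, 0 fell and 4 did not pass in immature against mature cells, with a median of 0.11. After median-ratio rescaling 2 were higher and 5 lower, with a median of -0.31, and after quantile normalization 3 were higher and 2 lower, with a median of -0.14. The rise of Hif1a turned sign under median-ratio rescaling and that of Arnt under both rescalings. The counts were also 4 and 0 in immature against double negative cells, with a median of 0.28. In mature against double negative cells 1 rose and 2 fell, with a median of 0.04, and after median-ratio rescaling 2 were higher and 2 lower. Hif1a, the oxygen-regulated subunit, stood at 43.5 and 41.7 RPKM in immature, 32.4 and 31.2 RPKM in mature and 29.6 and 32.5 RPKM in double negative cells. The oxygen sensor genes Egln1 and Egln2 and the degradation factor gene Vhl passed in none of the 3 comparisons. Another sensor gene of the list, Egln3, passed in all 3 and was picked after its values were seen. It stood at 5.02 and 5.77 RPKM in immature, 0.839 and 0.966 RPKM in mature and 2.40 and 2.25 RPKM in double negative cells. Hif1an, also picked later, passed only in mature against double negative cells, as higher (limma adjusted p = 0.042). Epas1, a subunit gene related to Hif1a and abundant in endothelium, was picked after its values were seen. It stood at 24.2 and 30.2 RPKM in immature, 0.270 and 0.239 RPKM in mature and 9.37 and 9.64 RPKM in double negative cells.

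Of the 8 tested targets of hypoxia-inducible factors, 3 rose, 2 fell and 3 did not pass in immature against mature cells, with a median of -0.05. After median-ratio rescaling 2 were higher and 5 lower there, with a median of -0.45, and after quantile normalization 1 was higher and 3 lower, with a median of -0.16. The rises of Adm and Ankrd37 turned sign under quantile normalization. In immature against double negative cells 7 rose and 0 fell, with a median of 0.48. The counts were 4 and 0 after median-ratio rescaling and 3 and 1 after quantile normalization, with the rises of Bnip3 and Ndrg1 turning sign under both rescalings and that of Ankrd37 under quantile normalization. In mature against double negative cells 4 rose and 1 fell, with a median of 0.24, and 6 and 0 after median-ratio rescaling. The targets did not move as a block: Ldha, which makes lactate, stood at 52.7 and 54.9 RPKM in immature against 16.9 and 17.2 RPKM in mature cells, while Bnip3, a mitophagy factor, stood at 17.2 and 17.4 RPKM in immature against 30.2 and 29.1 RPKM in mature cells. Slc2a1, a glucose transporter gene, did not pass between these beta cells (limma adjusted p = 0.179).

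The other partners of the neuropilins and of endothelial growth control were mostly higher where the receptors were. The list of class 3 semaphorins and plexins holds 13 genes, among them Gipc1, which is neither. Of these 11 were tested, and 10 rose, 0 fell and 1 did not pass in immature against mature cells, with a median of 1.20. After either rescaling 8 were higher and 1 lower, the rise of Gipc1 turning sign under median-ratio rescaling and that of Sema3c under quantile normalization. Against double negative cells 8 rose and 1 fell in immature cells, with a median of 0.64, and 1 rose and 6 fell in mature cells, with a median of -0.63. After quantile normalization these counts were 6 and 3 for immature cells and 2 and 5 for mature cells. Plxnd1, an endothelial semaphorin receptor, stood at 19.1 and 20.7 RPKM in immature, 0.121 and 0.266 RPKM in mature and 3.94 and 4.11 RPKM in double negative cells. Sema3f, which signals through Nrp2, stood at 11.6 and 16.7 RPKM in immature, 0.398 and 0.316 RPKM in mature and 4.58 and 4.37 RPKM in double negative cells. All 7 tested genes of the angiopoietin and endothelial Notch list, which also holds Apln, rose in immature against mature and against double negative cells. The medians were 3.78 and 1.73. All 7 fell in mature against double negative cells, with a median of -2.25. Angpt2, an antagonist ligand of the Tie2 receptor, stood at 107 and 83.8 RPKM in immature, 2.03 and 2.09 RPKM in mature and 20.4 and 23.2 RPKM in double negative cells.

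**Figure D4:**
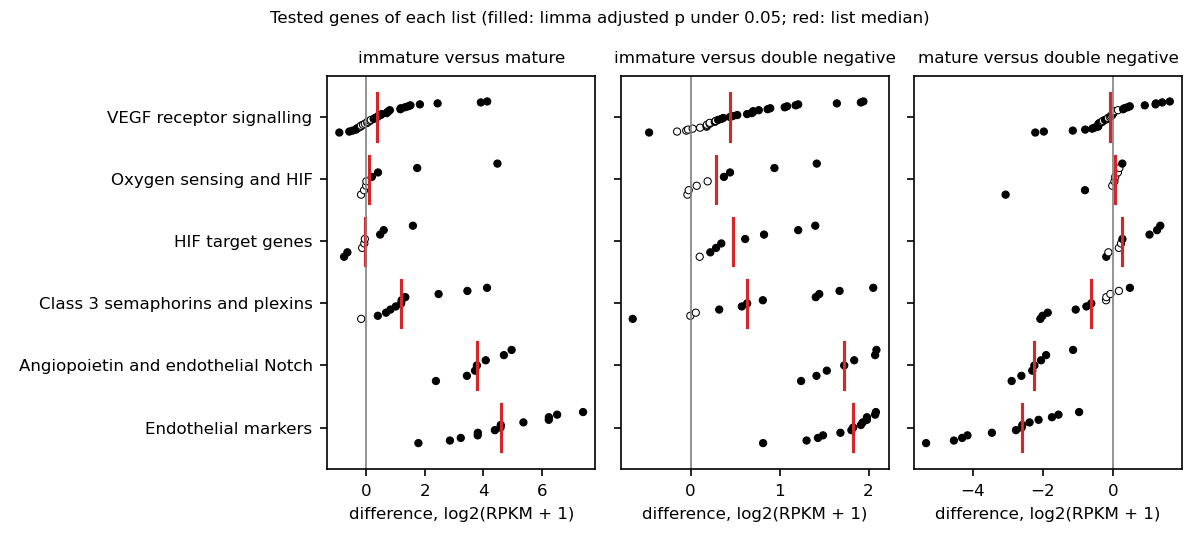
Difference on the log2(RPKM + 1) scale of the tested genes of 5 pathway lists and the endothelial markers in the 3 comparisons, 1 point per gene, filled where the limma adjusted p was under 0.05, with the list median in red. In immature against mature cells the medians of receptor signalling and oxygen sensing lie at 0.39 and 0.11, with single genes such as Epas1 at 4.48 and Cav1 at 4.13, picked after their values were seen, far to the right, and those of the angiopoietin and endothelial lists lie at 3.78 and 4.59.

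Markers of lymphatic endothelium, the usual site of Flt4, did not share 1 pattern. Of 5 such markers 2 were tested, Lyve1 and Pdpn, and Pdpn stood in the order of Flt4 while Lyve1 did not. Of the others, Ccl21a was listed at 0 in every library, and Mmrn1 was listed at 0 in 5 of 6. Reln, the last of them, was too low for testing. Its group means ran from 0.978 RPKM (mature) through 0.309 (immature) down to 0.0141 (double negative). This was the order of Lyve1 and not that of Flt4. Lyve1 stood at 4.01 and 3.78 RPKM in immature, 6.94 and 7.16 RPKM in mature and 0.365 and 0.726 RPKM in double negative cells, and was thus highest in mature cells, where Flt4 was lowest. Pdpn, which other cells also make, stood at 67.6 and 40.1 RPKM in immature, 0.0232 and 0.0616 RPKM in mature and 5.04 and 5.62 RPKM in double negative cells. In immature against mature cells Pdpn rose and Lyve1 fell, against double negative cells both rose, and in mature against double negative cells Lyve1 rose and Pdpn fell.

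The genes whose pattern was most like that of each member were found by the root mean square difference between centred log2(RPKM + 1) profiles over the 6 libraries. For Vegfa they were Aup1, Spry4 and Ephx1, at 0.037 to 0.055, and for Vegfb they were Alg1, Gcc1 and Dnajc15, at 0.027 to 0.042. For Vegfc the closest were Sdc4, Rxra and Tmed1, at 0.083 to 0.111, and for Pgf they were Colgalt2, Scd1 and Plin3, at 0.082 to 0.156. Kdr was closest to Msn, Col4a1 and Sema7a, at 0.097 to 0.108, and Flt1 to Robo4, Tmem204 and Ctgf, at 0.058 to 0.084. Flt4 was closest to Itgb3, Arhgap31 and Fmnl3, at 0.059 to 0.082, Nrp1 to Podxl, Il11 and Mcam, at 0.0751 to 0.0997, and Nrp2 to Timp3, Dll4 and Esam, at 0.037 to 0.087. Aup1, the closest to Vegfa, stood at 18.5 and 17.4 RPKM in immature, 12.999 and 12.791 RPKM in mature and 8.79 and 8.51 RPKM in double negative cells. Robo4, the closest to Flt1 and on the endothelial list, stood at 25.6 and 25.2 RPKM in immature, 0.0924 and 0.0908 RPKM in mature and 6.21 and 6.68 RPKM in double negative cells.

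The differences of both abundant ligands between immature and mature cells moved with the processing.

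**Figure D5:**
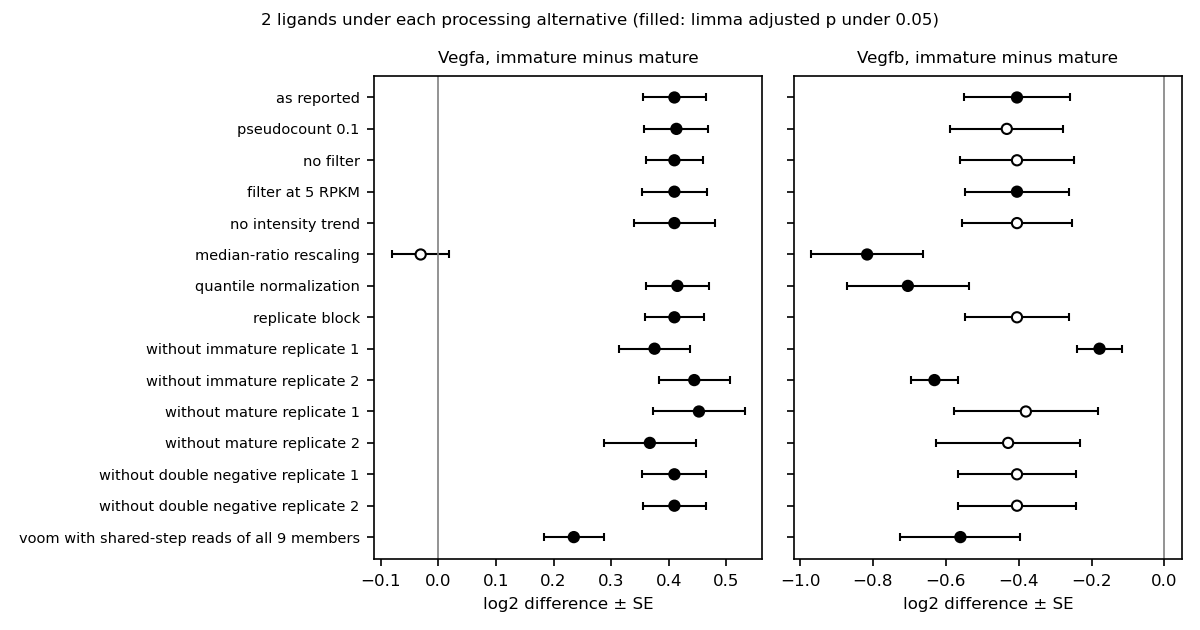
Log2 difference with its standard error of Vegfa and Vegfb in immature minus mature cells as reported and under each alternative, filled where the limma adjusted p was under 0.05. Vegfa lies between 0.23 and 0.46 except after median-ratio rescaling, where it is -0.03, and Vegfb stays below 0 throughout but does not pass in 8 of 15 alternatives.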

How the data were processed

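The authors deposited 1 table of RPKM values, with 1 column per library and 46959 rows. Column names were matched to the titles of the libraries. The tools were, per the submitters' processing notes, edgeR 3.14.0, featureCounts and STAR 2.5 on the build GRCm38.p4, and no source used here gives their settings. Per the labels' protocols, the kit was TruSeq RNA. RPKM depends on each library's total, so genes that take large shares shift all others.

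Reads were recovered from the RPKM steps with exonic lengths of GENCODE M21 (GRCm38), within 0.02 reads for values under 200 reads. Between 78.1% and 83.8% of such values were whole. For Vegfa, Vegfc, Pgf and Nrp1 the lengths did not match, and reads were taken from the largest step shared by the 6 values, which for Pgf is not unique.

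Genes with at least 1 RPKM in at least 2 libraries entered limma 3.58.1 (R 4.3.3) as log2(RPKM + 1), using group means over 6 libraries, an intensity trend, 3 residual degrees of freedom and Benjamini-Hochberg adjustment at 0.05 over 13367 genes. The design text gives separate pools of mice as replicates, so p-values measure the spread between these pools and libraries. That spread includes any difference between the sex labels, which differ between the replicates of every group. The procedure was tested on simulated data, in which a small set of genes was changed in the immature group alone. The simulation held no broad difference between the groups, so it cannot show how the procedure handles the dependence on scaling seen here. Members and lists were chosen with earlier results of these data known. Named beside the members are up to 4 genes of a list by mean level, the 3 closest profiles (highest group mean at least 5 RPKM), and genes said to be picked later. Alternatives were another pseudocount and filter, no trend, 2 rescalings, a replicate block, each library left out, and limma's voom on recovered reads. Promoters are from RefSeq (GRCm38.p6), and all 9 members matched.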

Additional observations from a re-analysis of the deposited data

Results flagged for a closer look

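Vegfc in immature against double negative cells moved in opposite directions in the libraries labelled male and female: the log2 difference was -0.0319 within replicate 1 and 0.16 within replicate 2. Each sex label has 1 library per group, so the difference between the sex labels was not tested. The values rest on 12 and 15 reads in the immature libraries.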

How the results depend on the processing

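The count of members passing was 9, 6 and 9 in immature against mature, immature against double negative and mature against double negative cells, and stayed within 1.5 times of these under every alternative except voom on recovered reads, which could fit only 5 members with matching lengths and called 5 of 5 in the first and the last comparison. Voom with the shared-step reads of all 9 members, added after seeing the data, called 9, 6 and 9. Leaving out each library gave 8 to 9, 6 to 7 and 8 to 9 members. The 5 receptors kept direction and call in all 3 comparisons under every alternative that could fit them.

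Vegfa turned to -0.0307 in immature against mature cells after median-ratio rescaling. In immature against double negative cells, Vegfb turned to -0.0147 after median-ratio rescaling and -0.0397 after quantile normalization. Vegfc turned there to -0.16 and -0.42 under the same rescalings and to -0.15 with shared-step voom, and ranged from -0.10 to 0.23 when each library was left out. Relative to the endothelial markers, Flt1 turned to -0.0515 with the filter at 5 RPKM and to -0.21 against Cdh5 and Pecam1 alone, and ranged from -0.0551 to 0.102 when each library was left out. The cause was not tested. The relative count was 6 and ranged from 5 to 6 when each library was left out, from 4 with a pseudocount of 0.1 to 8 against Cdh5 and Pecam1 alone.

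Of the 72 pathway genes 67 were tested, and they gave 51, 49 and 43 calls in the same 3 comparisons, within 1.5 times under every alternative, where 65.3%, 56.6% and 54.3% of all tested genes were called. The calls split into 43 higher and 8 lower in immature against mature cells, and into 31 and 25 after median-ratio rescaling and 33 and 15 after quantile normalization. In immature against double negative cells the split was 47 and 2, and 34 and 6 or 33 and 10 under the same rescalings.

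With the replicate number as a block, the member counts were 8, 6 and 9, and Vegfb lost its call in immature against mature cells (limma adjusted p = 0.055), and no other member's call changed. The populations came from the same islets by the labels, which do not say that a number marks a shared pool. Deviations of same-numbered libraries correlated across genes at -0.009, 0.14 and -0.112 in the 3 pairs of groups. Such correlations, from 2 libraries a group, cannot show whether same-numbered libraries shared a pool. The main test did not pair the libraries by number. In the shallowest library depth limits Vegfc, Pgf and Vegfb most, with 12, 24 and 38 reads, and the count for Pgf is not unique.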
